A study of Mus musculus with 12 samples.

Results

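Primordial germ cell-like cells (PGCLCs) expanded for 7 days in culture were compared with germ cells taken from female mouse embryos at E12.5 (embryonic day), using 4 of the 12 libraries of the study. The members are samples chosen by their labels, 2 libraries labelled d4c7 and 2 labelled E12.5 female, and no measured value entered the choice. The PGCLCs were derived in culture from embryonic stem cells through epiblast-like cells, with BMP4, LIF, SCF and EGF in the induction medium. They were sorted on day 4 of induction, expanded on m220 stromal feeder cells (mostly a single subline, m220-5) and sorted again after 7 days. These cells were C57BL/6 and carried the reporters Blimp1-mVenus and Stella-ECFP. The labels name a BVSC+ sort for them in one field and a sort on Blimp1-mVenus alone in another. The embryonic cells were a 1:1 mix of ICR and C57BL/6, carried the reporter Stella-EGFP and were sorted as positive for it. The study also holds d4c3 and d4c5 PGCLCs, cultured for 3 and 5 days, PGCs of E9.5 and male germ cells of E12.5.

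Culture is confounded in this comparison with strain, reporter, sort and RNA input, which was 10 ng per PGCLC library and 1 ng per embryonic library. No library crosses these factors, so their parts in any difference cannot be told apart. The labels do not give the sex of the PGCLC line. They also do not say whether replicates were separate cultures or litters, and the p-values therefore reflect no more than library-to-library spread, which may be technical. In bulk RNA, fewer cells of a type and less RNA per cell cannot be told apart.

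As background, mouse PGCs migrate to the gonad, lose most of their DNA methylation and start genes such as Dazl and Ddx4 that had been silenced by promoter methylation. In the fetal ovary, retinoic acid and BMP signals from somatic cells then act on germ cells, which begin meiosis by expressing Stra8. In the fetal testis, Nodal signalling rises in germ cells and meiosis is not begun.

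RNA was profiled by sequencing the 3' ends of transcripts after cDNA amplification, and the deposited values are RPM, read numbers scaled to the total of reads in genes. Estimated reads in genes were 2546694 and 5801877 in the d4c7 libraries and 3298534 and 3976934 in the E12.5 female libraries. A count of 3 reads, the upper limit that a value of 0 allows, was 1.18 and 0.517 RPM in d4c7 and 0.909 and 0.754 RPM in females. These limits cover counting error only. The root mean square difference between replicates on the log2 scale was 0.564 in d4c7, the widest of the 6 groups, and 0.403 in females. ERCC spike-in RNAs summed to 64.8 and 0 RPM in d4c7 and to 12107 and 14003 RPM in females, and their part in the differences was not tested.

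A total of 4221 of 10856 genes tested differed between d4c7 and E12.5 female germ cells, 38.9% of them, with an adjusted p under 0.05 in limma. Of these, 2154 (19.8%) were higher in d4c7 and 2067 (19.0%) were lower. Differences of at least 2-fold on the scale of log2(RPM + 1) were seen for 1051 of the genes that were higher and 1008 of those that were lower. Differences of at least 8-fold were seen for 52 and 42 genes. The 2 groups did not overlap for 7308 genes, or 67.3%. The median difference over all genes tested was -0.01. Fitting only the 4 libraries compared gave 2456 calls, and leaving out the first female library gave 2807.

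The largest increases among genes of at least 50 RPM were Dnmt3l, described below, and Fabp3 (Entrez 14077; chromosome 4, 130308738 to 130315463, GRCm38.p6), which encodes a fatty acid-binding protein. Fabp3 was at 186 and 207 RPM in the d4c7 libraries and at 3.03 and 2.26 RPM in the female libraries. Its level was thus 74.2-fold higher in d4c7, with no overlap, and the log2 difference was 5.76 ± 0.24 (SE; adjusted p = 4.99e-09). Prkch, which encodes protein kinase C eta, was at 92.7 and 92.2 RPM against 1.52 and 4.02 RPM. Spp1, which encodes the secreted protein osteopontin, was at 333 and 179 RPM against 10.9 and 12.8 RPM. In d4c3 PGCLCs these 3 genes already stood at 63.5, 83.5 and 79.3 RPM (means of 2), so their high level was not limited to the longest culture. The other increases of this group were Dgka, a diacylglycerol kinase, Lefty1, Psrc1, the secreted protease gene Htra1, AU018091, the annexin gene Anxa2, Tmem50b and the complement regulator gene Cd59a, with log2 differences from 3.19 to 4.12. Anxa2 differed between the d4c7 libraries, at 304 and 91.5 RPM, yet both lay above 15.5 and 13.3 RPM in females.

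Among the largest decreases, Id1 and Zglp1 are described with the BMP response, Phlda2 with the imprinted genes, and Slc25a31 and Mael with the late germline genes. Scml2, an X-linked gene for a Polycomb-associated protein of germ cells, was at 3.53 and 1.55 RPM in d4c7 and at 69.4 and 72.4 RPM in females. The E12.5 male mean for Scml2 was 54.0 RPM, so the low level separated d4c7 from both sexes. Mogat2, which encodes a monoacylglycerol acyltransferase, was at 1.57 and 2.59 RPM against 59.7 and 58.6 RPM. Entpd2, which encodes an enzyme that cleaves extracellular nucleotides, was at 4.32 and 5.52 RPM against 74.9 and 68.1 RPM. D6Mm5e, Pdia4, Msx2 and Nlrp4c complete the 12, with log2 differences from -4.38 to -2.67. Reads of Nlrp4c may be shared with its close relatives in the Nlrp4 family, so its value is uncertain. Pdia4 was at 1.18 and 12.8 RPM in d4c7, a wide spread, against 61.2 and 63.9 RPM in females.

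**Figure D1:**
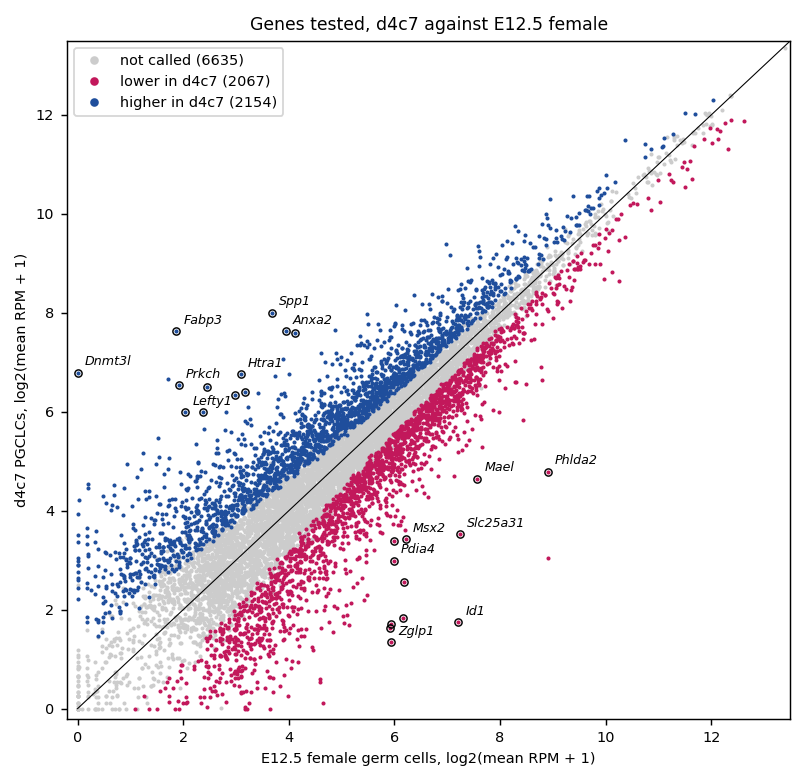
Mean level of each of the 10856 genes tested in d4c7 PGCLCs (vertical) against E12.5 female germ cells (horizontal), both as log2(mean RPM + 1) of 2 libraries, with called genes in colour and the 12 largest increases and 12 largest decreases circled. Genes higher in d4c7 (2154) and lower in d4c7 (2067) lie on both sides of the diagonal in similar number.

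Gene lists for germ cell, signalling and housekeeping functions differed widely in how many members were called. The list counts given below stand beside 19.8% of all genes tested that were higher and 19.0% that were lower. The lists for meiotic entry, the piRNA pathway and late germline genes held no member that was higher in d4c7. The lists for p53 targets and pluripotency held the largest shares of members that were higher. For Hox cluster genes, none of 17 tested members was called in limma and none had an unadjusted p under 0.05. All 39 Hox rows together summed to only 5.92 and 0.898 RPM in d4c7 and to 5.81 and 4.68 RPM in females. Of the tested members, 13 had a group at 0. At these levels a difference could hardly be seen, so nothing is concluded from the lack of calls.

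**Figure D2:**
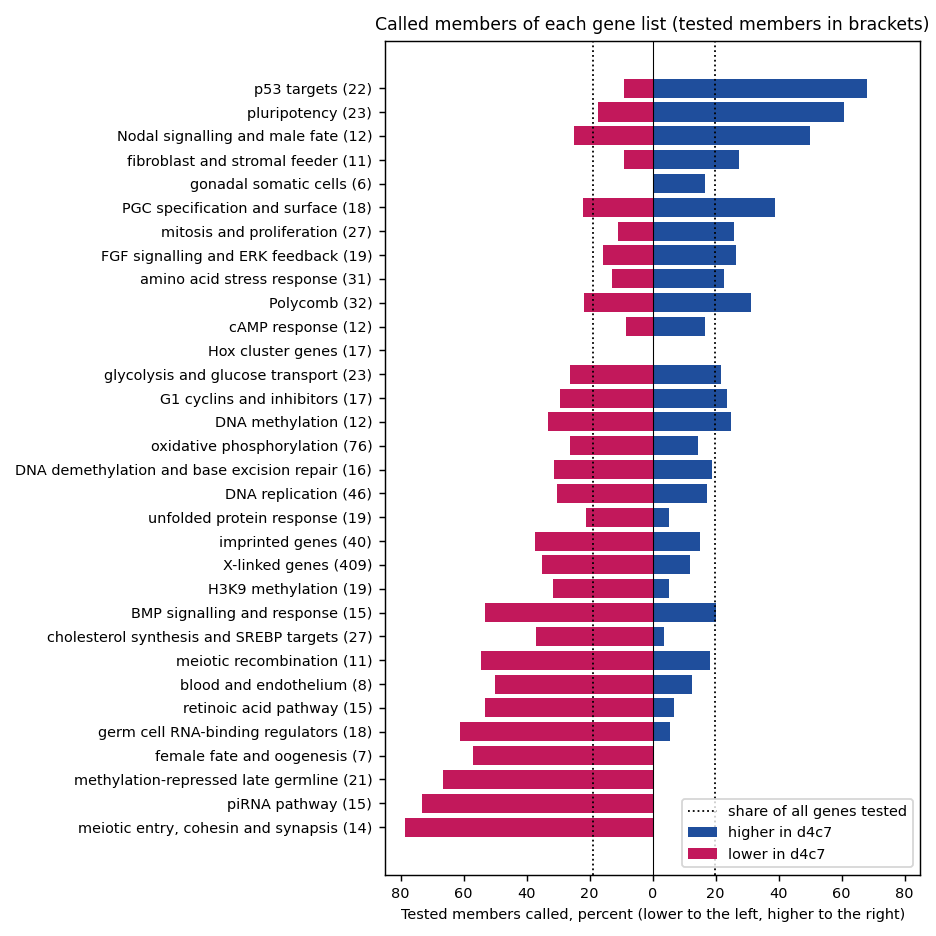
Percent of tested members called lower in d4c7 (bars to the left) and higher in d4c7 (bars to the right) for each gene list with at least 6 tested members, whose number stands in brackets; dotted lines mark the shares over all genes tested (19.0% and 19.8%). Meiotic entry genes stand at the bottom with 11 of 14 lower, and p53 targets at the top with 15 of 22 higher.

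Genes of the BMP response were mostly lower in d4c7 than in females. BMP ligands bind receptor kinases that activate SMAD1 and SMAD5, and the Id genes, Msx2 and Gata2 are among the targets of this pathway. Of 15 tested genes of the BMP list, 8 were lower and 3 were higher, and the median log2 difference was -0.86. Set against E12.5 males, where 36.6% of all genes tested were called, 2 of the 15 were higher in d4c7 and 1 was lower (median 0.06). Between females and males, with 11.9% of all genes tested called, 7 of the 15 were higher in females and 1 was lower (median 0.79). Among ligands, Bmp4 was higher in d4c7 than in females, at 29.8 and 12.0 RPM against 4.24 and 2.26 RPM. Receptor genes were not called, with log2 differences of -0.41 for Bmpr1a, -0.86 for Acvr1 and 0.92 for Bmpr2. Each passed in some alternative: Bmpr1a (adjusted p = 0.0383) and Bmpr2 (0.0496) without the first female library, Acvr1 (0.0376) without the second d4c7 library, and Bmpr1a also with the replicate block (0.0272). Of the signal transducers, Smad1 was higher (7.85 and 9.48 RPM against 1.82 and 2.01 RPM) while Smad5 was not called (-0.47), with an adjusted p of 0.0337 without the second d4c7 library. Smad6, which encodes an inhibitor of the pathway that the pathway itself induces, was lower, at 17.7 and 15.2 RPM against 41.2 and 36.5 RPM.

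Each of the 4 Id genes, which encode inhibitors of helix-loop-helix transcription factors, was lower in d4c7. Id1 (Entrez 15901; chromosome 2, 152736251 to 152737410) was at 3.53 and 1.21 RPM in d4c7 and at 139 and 154 RPM in females. The groups lay far apart, with a female mean 61.8-fold higher, and the log2 difference was -5.54 ± 0.38 (SE; adjusted p = 4.48e-07). Id3 was at 87.6 and 104 RPM against 297 and 327 RPM, Id4 at 3.53 and 4.14 RPM against 19.4 and 30.9 RPM, and Id2 at 18.1 and 10.2 RPM against 33.0 and 39.2 RPM. Msx2, a homeobox gene, was at 7.59 and 12.0 RPM against 71.5 and 75.2 RPM. Gata2, which encodes a zinc finger transcription factor, was at 50.3 and 48.3 RPM against 175 and 178 RPM. None of these 6 genes overlapped between the groups, which was also so for 67.3% of all genes tested. E12.5 male means were 4.44 RPM for Id1, 6.40 for Msx2 and 12.7 for Gata2, so d4c7 resembled the male level for the first pair and stood above it for Gata2.

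Zglp1 (Entrez 100009600; chromosome 9, 21062393 to 21067093) encodes a GATA-like zinc finger protein that acts in the oogenic fate downstream of BMP. It was at 1.18 and 1.90 RPM in d4c7, at the limit of 3 reads in the first library and above it in the second, and at 62.5 and 58.6 RPM in females. The log2 difference was -4.61 ± 0.37 (adjusted p = 1.27e-06), and the E12.5 male mean was 14.4 RPM. Of the 7 tested genes of the list for female fate and oogenesis, 4 were lower and none was higher. Sohlh2, which encodes a transcription factor of early oocytes, was at 55.4 and 34.5 RPM against 141 and 150 RPM. The oocyte regulator Foxo3 overlapped, at 44.4 and 49.1 RPM against 42.7 and 45.0 RPM.

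Genes of the retinoic acid pathway were lower in 8 of 15 tested cases, with a median of -1.03. Leaving out the first d4c7 library or either female library gave a count of 5. Set against E12.5 males, where 36.6% of all genes tested were called, 4 of the 15 were higher in d4c7 and 3 were lower (median 0.07). Between females and males, with 11.9% of all genes tested called, 7 of the 15 were higher in females and 1 was lower (median 0.63). Crabp1, which encodes a retinoic acid-binding protein, was at 9.42 and 19.5 RPM in d4c7 and at 55.8 and 57.3 RPM in females. In the other direction, Cyp26a1, which encodes an enzyme that breaks down retinoic acid, was at 22.0 and 10.5 RPM in d4c7 and at 0.909 and 0.251 RPM in females, at or under the limit of 3 reads. The contrast of d4c7 with d4c3, which uses the same d4c7 libraries, had 298 calls (2.75% of genes tested), and 31 without the first d4c3 library, 140 without the second and 786 without the second d4c7 library. When those 4 libraries alone were fitted, no gene passed in limma (0 calls), although the unadjusted p of 1084 genes was below 0.05.

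Stra8 (Entrez 20899; chromosome 6, 34920163 to 34939344), the gene that retinoic acid induces at meiotic entry, was on in d4c7 but below the female level. It was at 11.0 and 8.79 RPM in d4c7 and at 37.0 and 38.0 RPM in females, with no overlap. The log2 difference was -1.83 ± 0.38 (adjusted p = 0.0021). Its means were 0.222 RPM in d4c3 and 0.776 RPM in E12.5 males, where 1 library reached 1.25 RPM. Rec8, which encodes a meiotic cohesin and also responds to retinoic acid, was at 9.82 and 14.8 RPM against 44.3 and 55.6 RPM.

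Of 14 tested genes for meiotic entry, cohesin and synapsis, 11 were lower in d4c7 and none was higher, with a median of -1.89. Set against E12.5 males, 7 of the 14 were lower in d4c7 and 2 were higher, with a median of -0.93. In that contrast 36.6% of all genes tested were called. Cohesin genes were among them: Smc1b was at 42.0 and 41.7 RPM against 162 and 176 RPM, and Stag3 was at 47.9 and 52.9 RPM against 151 and 130 RPM. Genes of the synaptonemal complex, the protein ladder that pairs homologous chromosomes, were also lower. Tex12 was at 3.93 and 4.14 RPM against 25.2 and 26.4 RPM, Syce1 at 10.6 and 17.1 RPM against 63.1 and 55.8 RPM, and Sycp1 at 7.46 and 4.14 RPM against 24.9 and 24.4 RPM. Sycp3, the lateral element gene, was at 26.7 and 20.2 RPM against 41.8 and 48.0 RPM and was not called (log2 difference -0.92 ± 0.38, adjusted p = 0.0696 in limma). It was lower with only the 4 libraries fitted (adjusted p = 0.0379) and with a pseudocount of 5 (0.0202). Syce2 was at 304 and 281 RPM against 351 and 358 RPM, without overlap, and was not called (adjusted p = 0.0508). Without the first d4c7 library its adjusted p was 0.0419, with quantile normalization 0.0160 and with a filter of 20 RPM 0.0450.

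Among 11 tested meiotic recombination genes, 6 were lower and 2 were higher, and leaving out the first d4c7 library or the second female library left 3 that were lower, while without the second d4c7 or the first female library 1 was higher. Dmc1, the recombinase gene of meiosis, was at 4.71 and 5.69 RPM in d4c7 and at 25.8 and 19.6 RPM in females. Psmc3ip, which encodes a cofactor of meiotic recombination, was higher in d4c7, at 53.4 and 54.1 RPM against 34.0 and 28.2 RPM. Tests of E12.5 female against male germ cells, in which 1297 genes were called (11.9% of those tested; 538 to 567 with 1 of those 4 libraries left out), found 5 of the 14 meiotic entry genes higher in females and none lower.

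**Figure D3:**
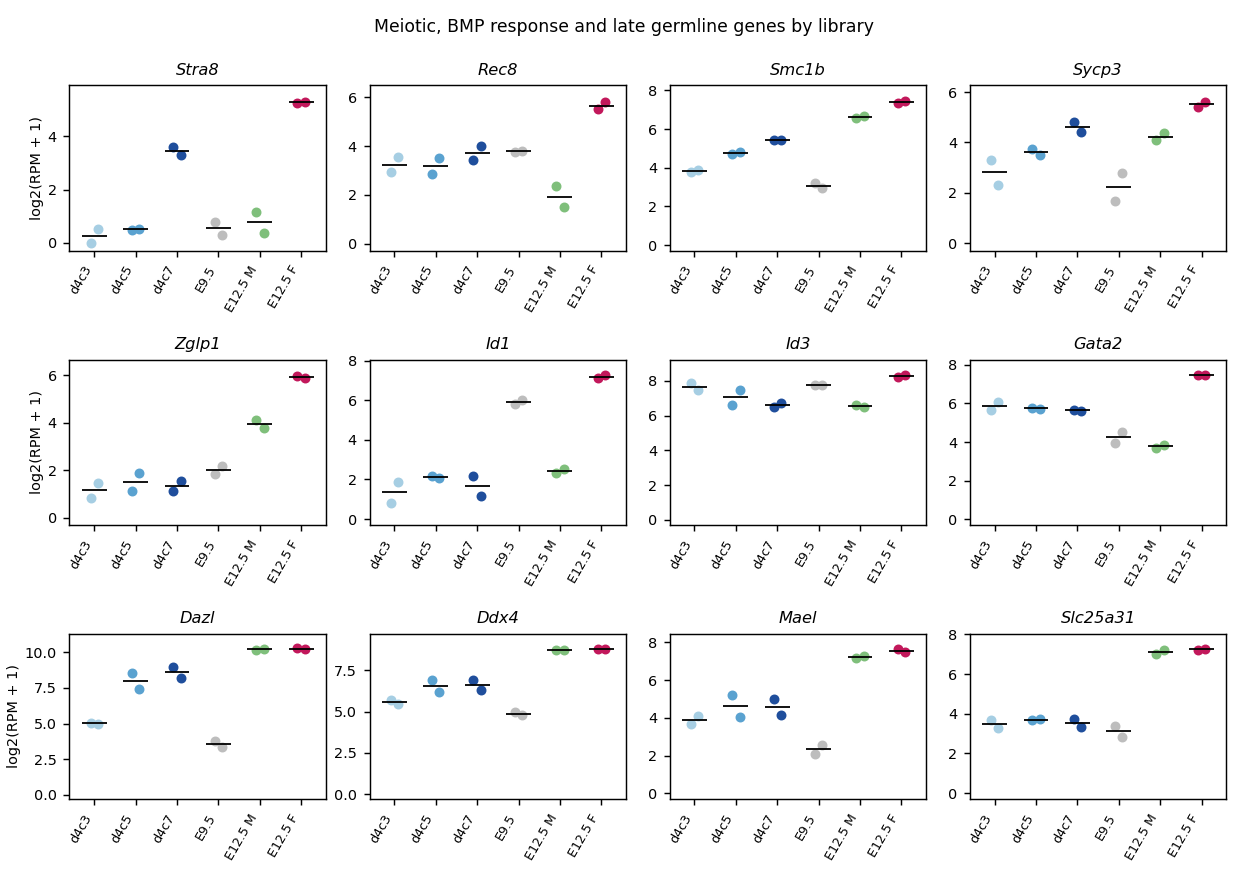
Level of 12 genes as log2(RPM + 1) in the 2 libraries (points) of each of the 6 groups, with the group mean as a bar; the panels run from meiotic entry (top) through the BMP response (middle) to late germline genes (bottom). In each panel both d4c7 libraries lie below both E12.5 female libraries, and Stra8 is at 8.79 RPM or more in d4c7 and females and at or under 1.25 RPM in each library of the other 4 groups.

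Late germline genes, a set known for promoters silenced by DNA methylation until PGCs are demethylated, were mostly lower in d4c7 than in females. Of 21 tested, 14 were lower in d4c7 and none was higher, with a median of -1.65. Several of their promoters hold the letters CACGTG, the core E-box that MYC and MAX proteins can bind, and E2F6 and MAX belong to a complex known to silence germline genes in other cells. In the RefSeq promoter table for GRCm38.p6, this motif, which reads the same on both strands, occurs within the 250 bases before the start in 6.02% of 32851 promoters. It occurs for 12 of the 22 late germline genes with a promoter in the table, and for 10.3% of the 8449 tested genes with one. The sequences of Mael, Slc25a31 and Ddx4, which hold it, and of Dazl, which does not, are shown because these genes carry the result. They are written 5' to 3' on the strand of the gene and end at the base before the start that the promoter table uses, with the motif in capitals. For Ddx4 that start lies inside the RefSeq gene span (112598333 to 112652633), so its sequence is not upstream of the whole gene. Mael lies on the minus strand of chromosome 1 (166238745 to 166238994), Slc25a31 on the plus strand of chromosome 3 (40708621 to 40708870), Ddx4 on the minus strand of chromosome 13 (112652311 to 112652560) and Dazl on the minus strand of chromosome 17 (50293621 to 50293870).
Mael: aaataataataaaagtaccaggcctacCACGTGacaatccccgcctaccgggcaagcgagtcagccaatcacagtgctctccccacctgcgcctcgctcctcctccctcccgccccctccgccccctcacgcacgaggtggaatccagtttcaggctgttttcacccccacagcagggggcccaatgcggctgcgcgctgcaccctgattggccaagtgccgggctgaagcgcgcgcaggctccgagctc
Slc25a31: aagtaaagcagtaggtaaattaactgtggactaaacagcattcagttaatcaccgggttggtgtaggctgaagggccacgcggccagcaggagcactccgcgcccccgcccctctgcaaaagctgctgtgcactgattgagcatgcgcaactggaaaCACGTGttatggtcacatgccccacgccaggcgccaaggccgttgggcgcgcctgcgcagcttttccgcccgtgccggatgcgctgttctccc
Ddx4: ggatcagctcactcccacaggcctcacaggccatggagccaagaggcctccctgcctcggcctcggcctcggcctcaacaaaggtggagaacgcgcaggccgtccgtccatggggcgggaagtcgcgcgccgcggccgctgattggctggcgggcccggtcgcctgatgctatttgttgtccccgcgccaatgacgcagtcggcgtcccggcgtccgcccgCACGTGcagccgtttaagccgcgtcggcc
Dazl: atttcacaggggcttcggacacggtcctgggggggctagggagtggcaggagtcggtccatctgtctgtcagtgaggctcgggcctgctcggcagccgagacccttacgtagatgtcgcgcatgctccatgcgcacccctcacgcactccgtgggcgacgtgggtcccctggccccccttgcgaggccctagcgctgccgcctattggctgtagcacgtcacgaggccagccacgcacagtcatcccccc

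Of the 11 tested late germline genes with the motif, 9 were lower in d4c7, and of the 9 without it, 5 were lower. Over all tested genes with a promoter in the table, 18.3% of those with the motif and 19.5% of those without it were lower. A match describes letters only.

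Slc25a31, which encodes the germ cell form of the mitochondrial ADP/ATP carrier, was at 12.2 and 8.96 RPM in d4c7 and at 149 and 152 RPM in females (log2 difference -3.72 ± 0.24, adjusted p = 3.23e-07). Its d4c3 mean was 10.3 RPM, and it showed no call between d4c3 and d4c7. Mael, needed for transposon silencing, was at 31.4 and 16.7 RPM against 199 and 178 RPM (-2.98 ± 0.34, adjusted p = 2.20e-05). Both genes stood near their female level in E12.5 males, at means of 136 and 149 RPM.

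Ddx4, the germ cell RNA helicase gene also called Vasa, was at 118 and 78.9 RPM in d4c7 and at 447 and 445 RPM in females (-2.20 ± 0.21, adjusted p = 5.87e-06). Dazl, which encodes an RNA-binding protein that germ cells need to leave their pluripotent state, was at 505 and 296 RPM against 1245 and 1191 RPM (-1.65 ± 0.29, adjusted p = 0.000573). The d4c3 means were 31.8 RPM for Dazl and 46.6 RPM for Ddx4, and in neither did d4c7 reach the female libraries. Both genes were called higher in d4c7 than in d4c3, with log2 differences of 3.56 and 1.04. In that contrast, 8 of the 21 tested late germline genes were higher in d4c7 and none was lower, with a median of 1.035. Over all genes tested, 2.75% were called in it, and 0 genes when its 4 libraries were fitted alone.

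Other members of the list overlapped with the female libraries. Piwil2 was at 108 and 80.5 RPM against 104 and 108 RPM. Hsf2bp was at 59.7 and 44.3 RPM against 52.4 and 64.1 RPM, and Tex19.1 was at 154 and 62.8 RPM against 136 and 140 RPM. These 3 genes were not called, but without the first d4c7 library Tex19.1 was lower, with a log2 difference of -1.12 (adjusted p = 0.00188).

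The piRNA pathway, in which PIWI proteins guided by small RNAs silence transposons, had 11 of 15 tested genes lower in d4c7 and none higher, with a median of -1.79; without the second d4c7 library 1 was higher. Of the 15, 9 also stand in the late germline list. Asz1, a mitochondrial-surface scaffold gene, was at 11.8 and 10.5 RPM against 86.7 and 59.3 RPM. The helicase gene Mov10l1 was at 9.42 and 14.8 RPM against 66.1 and 69.1 RPM, and Tdrd7 was at 3.93 and 4.65 RPM against 32.7 and 27.2 RPM. Tdrd12 leaned the other way, at 85.2 and 45.7 RPM against 45.8 and 32.7 RPM, without a call, although it was called without the second d4c7 library (adjusted p = 0.00253) and with the replicate block (0.0237).

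Germ cell RNA-binding regulators were lower in 11 of 18 tested cases and higher in 1. None was higher without the second female or the first d4c7 library, and 2 were higher without the first female or the second d4c7 library. Dnd1, which protects PGCs from loss and from teratoma, was at 49.1 and 62.9 RPM in d4c7 and at 337 and 349 RPM in females (-2.61 ± 0.14, adjusted p = 6.54e-08). Its d4c3 mean was 139 RPM. Lin28a, which encodes an inhibitor of let-7 miRNA processing, was at 6.28 and 15.2 RPM against 54.3 and 52.1 RPM, and Lin28b was at 5.10 and 5.17 RPM against 23.3 and 26.9 RPM. Nanos3, needed for PGC survival, was at 9.42 and 15.2 RPM against 15.5 and 15.6 RPM and was not called.

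Nodal, its co-receptor and its antagonists were higher in d4c7. Nodal is a TGF-beta ligand that signals through the co-receptor Tdgf1 (Cripto) and SMAD2/3, and its antagonists Lefty1 and Lefty2 are among its targets. Of 12 tested genes of the list for Nodal signalling and male fate, 6 were higher, among them Dnmt3l, which stands in the list for male fate, and 3 were lower. Leaving out the second female library left 1 that was lower, while 6 were higher in each such fit. Nodal was at 29.1 and 21.4 RPM in d4c7 and at 6.06 and 9.56 RPM in females, and Tdgf1 was at 36.1 and 43.8 RPM against 5.76 and 1.76 RPM.

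Lefty1 (Entrez 13590; chromosome 1, 180935022 to 180938401) was at 66.9 and 57.8 RPM against 2.43 and 3.77 RPM (3.97 ± 0.22, adjusted p = 1.52e-07). Lefty2 was at 24.5 and 15.6 RPM against 2.12 and 1.01 RPM. E12.5 male means were 187 RPM for Lefty1 and 253 RPM for Lefty2, so d4c7 lay between the sexes for both. Smad3 was higher in d4c7, at 48.7 and 37.9 RPM against 12.1 and 18.4 RPM, and Foxh1, a transcription factor partner of SMAD2, was lower, at 0.785 and 4.65 RPM against 13.6 and 15.8 RPM.

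Dnmt3l (Entrez 54427; chromosome 10, 78042287 to 78063622), a cofactor of the de novo DNA methyltransferases that male germ cells express later in development, was at 178 and 41.0 RPM in d4c7 and at 0 in both female libraries. Against the limit of 3 reads in a female library, the lower d4c7 library was at least 45.1-fold higher (adjusted p = 1.42e-05 in limma). It was also at 0 in both E12.5 male and both E9.5 libraries, and its d4c3 mean was 8.08 RPM. The d4c7 libraries differed widely, yet both lay above every embryonic library.

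Genes of PGC specification and of the PGC surface differed in both directions. The list had 7 of 18 tested members higher and 4 lower, with a median of 0.01. Prdm1 and Dppa3 are the genes of the reporters used for sorting, and the sort differed between the groups. Prdm1, which encodes the repressor BLIMP1, was at 88.3 and 120 RPM in d4c7 and at 61.6 and 71.7 RPM in females (0.62 ± 0.15, adjusted p = 0.00523). Leaving out the first female library gave an adjusted p of 0.0593, and the fit of only the 4 libraries gave 0.0689. Dppa3, which encodes Stella, was at 1316 and 1684 RPM against 2864 and 2967 RPM (-0.97 ± 0.10, adjusted p = 1.31e-05).

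Prdm14, a partner of Prdm1 in PGC specification, was at 91.5 and 106 RPM against 60.6 and 51.3 RPM and was higher in d4c7. Tfap2c, the third transcription factor of that network, was at 159 and 179 RPM against 129 and 152 RPM and was not called. Kit, the receptor gene for SCF, overlapped at 168 and 252 RPM against 263 and 232 RPM, and without the second d4c7 library it was lower (adjusted p = 0.00658). Among surface genes, Cd9 was higher, at 316 and 330 RPM against 131 and 107 RPM. Fut4, whose enzyme makes the SSEA1 carbohydrate, was at 0.393 and 0 RPM against 17.6 and 12.1 RPM, so it was detected in females and at or under the limit of 3 reads in d4c7.

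Of 23 tested pluripotency genes, 14 were higher in d4c7 and 4 were lower, with a median of 0.57. Pou5f1, which encodes OCT4, was level, at 475 and 521 RPM against 538 and 492 RPM (-0.05 ± 0.12, adjusted p = 0.773). Nanog was at 294 and 307 RPM against 127 and 110 RPM (1.33 ± 0.13, adjusted p = 5.40e-06). Klf2 was at 210 and 120 RPM against 42.4 and 47.0 RPM, Esrrb at 273 and 322 RPM against 146 and 160 RPM, and Sox2 at 368 and 366 RPM against 259 and 235 RPM. Nanog, Klf2, Esrrb and Sox2 did not overlap between the groups, which was also so for 67.3% of all genes tested, whereas Pou5f1 overlapped. Dppa5a was at 3165 and 2619 RPM against 1358 and 1274 RPM. Several of these genes have processed pseudogenes of near-identical sequence, and how shared reads were assigned is not given in the sources used here.

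Fgf4 was at 12.6 and 6.03 RPM in d4c7 and at 0 in both female libraries, with the lower d4c7 library at least 6.63-fold higher against the limit of 3 reads. It reached the minimum for testing only through the d4c7 libraries, and its d4c3 mean was 0.613 RPM. Of the 4 genes that were lower, Utf1 was at 458 and 482 RPM against 708 and 695 RPM, and Nr6a1, which encodes a nuclear receptor known to repress Pou5f1, was at 69.1 and 97.7 RPM against 155 and 175 RPM. Lin28a, described above, also stands in this list.

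**Figure D4:**
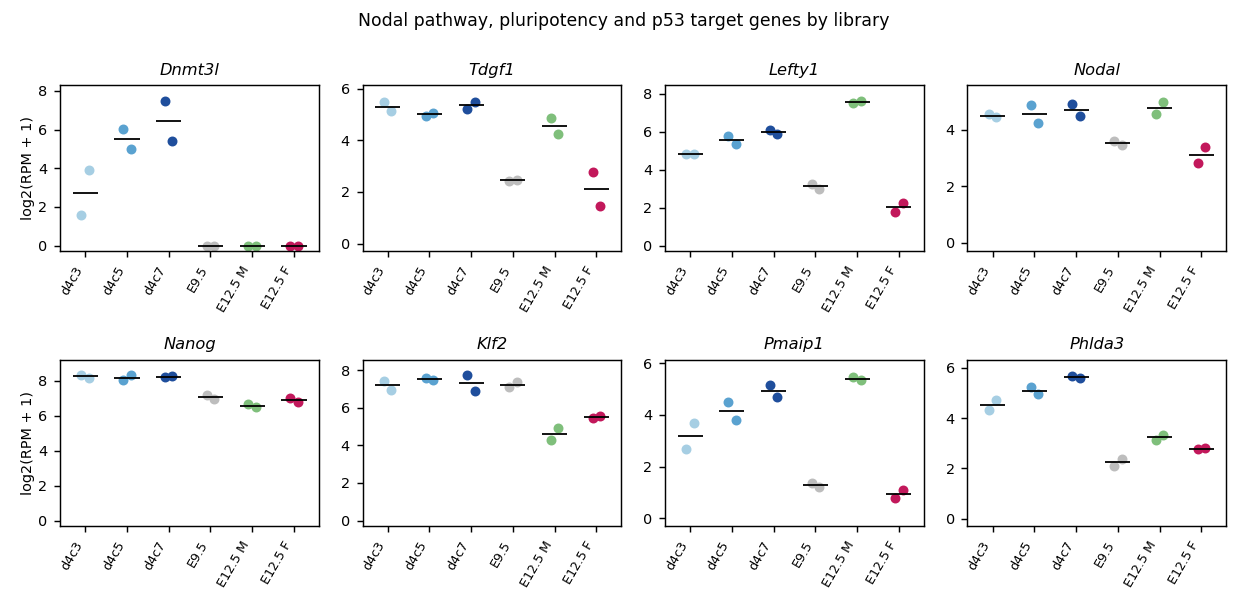
Level of 8 genes as log2(RPM + 1) in the 2 libraries (points) of each of the 6 groups, with the group mean as a bar, for the Nodal pathway and Dnmt3l, pluripotency and p53 targets. Both d4c7 libraries lie above both E12.5 female libraries in every panel, whereas E12.5 males stand above d4c7 for Lefty1 and at 0 for Dnmt3l.

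The p53 target list had the largest share of members that were higher in d4c7. The transcription factor p53 responds to DNA damage and other stress by inducing genes for cell cycle arrest, DNA repair and apoptosis, and its target Mdm2 feeds back to degrade it. Of 22 tested targets, 15 were higher and 2 were lower, with a median of 1.18. With 1 library left out in turn, 14 or 15 were higher. Pmaip1, which encodes the apoptosis protein NOXA, was at 35.1 and 24.6 RPM in d4c7 and at 0.707 and 1.13 RPM in females (4.00 ± 0.37, adjusted p = 4.12e-06). Its male mean was 41.6 RPM, so this gene separated females from both other groups.

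Phlda3, an inhibitor of AKT signalling, was at 49.5 and 47.7 RPM against 5.76 and 6.03 RPM. Unlike Pmaip1 it was also low in E12.5 males, at a mean of 8.42 RPM. Polk, a gene for a DNA polymerase that copies damaged templates, was at 30.6 and 19.3 RPM against 4.24 and 3.77 RPM, and the receptor gene Eda2r was at 41.6 and 36.5 RPM against 7.88 and 8.05 RPM. Smaller increases were seen for Ccng1 (238 and 167 RPM against 70.3 and 68.6 RPM), the apoptosis effector gene Bax (119 and 132 RPM against 51.5 and 53.6 RPM) and Mdm2 (290 and 192 RPM against 131 and 123 RPM).

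The arrest gene Cdkn1a, which encodes p21, went against the list, at 21.2 and 21.0 RPM in d4c7 and at 45.2 and 37.5 RPM in females (-0.93 ± 0.28, adjusted p = 0.0191). Its adjusted p was 0.125 without the first female library and 0.0512 without the first d4c7 library. Xpc, a gene for a sensor of damaged bases, was the other decrease, and its adjusted p was 0.204 without the first female library and 0.0753 without the second d4c7 library.

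Genes of DNA methylation moved in both directions, 3 of 12 tested higher and 4 lower, or 58.3% called beside 38.9% of all genes tested. Dnmt3b was at 21.2 and 42.9 RPM in d4c7 against 7.58 and 7.54 RPM in females, and Dnmt3a was at 10.2 and 18.8 RPM against 34.3 and 37.7 RPM. These 2 genes encode the active de novo methyltransferases, and they differed in opposite directions. Hells, which encodes a remodelling helicase that aids methylation, was at 190 and 142 RPM against 277 and 317 RPM. Mbd2, a reader of methylated DNA, was at 23.2 and 24.3 RPM against 4.24 and 5.28 RPM. The count of genes that were lower ranged from 2, without the first female or the first d4c7 library, to 7, without the second d4c7 library.

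In the list for demethylation and base excision repair, 3 of 16 were higher and 5 were lower. Without the first d4c7 library 1 was lower, without the first and second female libraries 2 and 3. Tdg, which encodes the glycosylase that removes oxidised methylcytosine, was at 93.8 and 97.6 RPM against 42.0 and 46.8 RPM. Parp1, which encodes a sensor of DNA breaks, was at 521 and 496 RPM against 897 and 891 RPM. Of 32 tested Polycomb genes, 10 were higher and 7 were lower, and without the second female library 4 were lower. Eed, a core subunit gene of the complex that methylates H3K27, was at 206 and 156 RPM against 87.6 and 112 RPM. Bmi1, a subunit gene of the ubiquitin ligase complex, was at 24.0 and 25.8 RPM against 64.3 and 70.5 RPM.

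Among 40 tested imprinted genes, 15 were lower in d4c7 and 6 were higher, and 9 were lower without the first female library. Phlda2 (Entrez 22113; chromosome 7, 143501545 to 143503145), a growth-restraining gene of the placenta, was at 24.3 and 29.0 RPM in d4c7 and at 468 and 490 RPM in females. It was lower by 18.0-fold, with a log2 difference of -4.12 ± 0.14 (adjusted p = 5.88e-10). The d4c3 mean was 191 RPM and the male mean 5.67 RPM. Its neighbours in the same imprinted domain of chromosome 7 were lower as well: Slc22a18 was at 1.96 and 1.90 RPM against 34.0 and 20.9 RPM, and Cdkn1c was at 6.68 and 6.03 RPM against 30.0 and 26.7 RPM.

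Igf2, a fetal growth factor gene, was at 1.18 and 3.45 RPM against 29.1 and 35.0 RPM. Asb4 was at 1.37 and 2.76 RPM against 20.6 and 15.1 RPM. Some other imprinted genes went the other way. Peg3 was at 405 and 356 RPM against 156 and 148 RPM, Slc38a4 at 198 and 261 RPM against 97.6 and 90.0 RPM, and Mest at 101 and 78.3 RPM against 32.1 and 22.1 RPM. Snrpn has fractional values that may come from reads shared with an overlapping gene, so no value is given for it.

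Metabolic lists held members that differed in both directions. The share called was 47.8% for glycolysis and glucose transport and 40.8% for oxidative phosphorylation. Over all genes tested it was 38.9%, so the second of these lists did not stand out. Of 23 tested genes of glycolysis and glucose transport, 5 were higher and 6 were lower, and each count was 3 without the first female library. Slc2a3, a glucose transporter gene, was at 536 and 810 RPM in d4c7 and at 109 and 141 RPM in females. The lactate dehydrogenase subunit genes differed in opposite directions: Ldha was at 27.9 and 16.0 RPM against 75.8 and 66.5 RPM, and Ldhb was at 74.6 and 130 RPM against 28.2 and 40.9 RPM. Of 76 tested genes of oxidative phosphorylation, 11 were higher and 20 were lower, and 13 were lower without the first female library.

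For cholesterol synthesis, 10 of 27 genes were lower and 1 was higher, and 6 were lower without the second female library. Insig1, a feedback regulator gene of sterol sensing, was at 14.1 and 13.3 RPM against 70.3 and 71.7 RPM. Sqle, an enzyme gene of the pathway, was at 164 and 128 RPM against 122 and 119 RPM and was not called, with an adjusted p of 0.0398 without the second d4c7 library. In the amino acid stress list, 7 of 31 were higher and 4 were lower, and leaving out the first or second female library left 1 or 2 that were lower. The share of this list that was called, 35.5%, was near the 38.9% of all genes tested. The transporter genes Slc7a3 (30.6 and 35.0 RPM against 1.82 and 2.01 RPM) and Slc38a2 (116 and 113 RPM against 39.7 and 33.7 RPM) were higher. Trib3 was lower, at 7.46 and 7.93 RPM against 21.9 and 20.1 RPM.

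X-linked genes were more often lower in d4c7 than genes overall. Female mammals silence 1 X chromosome in somatic cells, and female germ cells reactivate it around this stage. Of 409 tested X-linked genes, 144 were lower and 48 were higher, with a median of -0.36, while the median over 10088 tested autosomal genes was 0.00. With 1 of the 4 libraries left out, 112 to 137 were lower. Against the E12.5 male libraries, with the same female libraries, 117 X-linked genes were higher and 5 were lower in females, with a median of 0.43, beside 725 higher and 572 lower over all genes tested. Set against E12.5 males, a contrast in which 36.6% of genes were called, d4c7 had 89 X-linked genes higher and 66 lower, with a median of 0.05.

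Usp9x, which encodes a deubiquitinase, was at 308 and 291 RPM in d4c7 and at 648 and 627 RPM in females (-1.09 ± 0.10, adjusted p = 4.31e-06), and its male libraries were at 336 and 357 RPM. Kdm5c, a histone demethylase gene, was at 21.6 and 23.3 RPM against 76.7 and 63.4 RPM. Atrx, a chromatin remodeller gene, went the other way, at 186 and 216 RPM against 123 and 104 RPM. Xist, the RNA that starts X inactivation, was not tested because no group reached the minimum level, and it was at or under 1.03 RPM in these 4 libraries. The table holds no gene row on chromosome Y, so the sex of the PGCLC line was not examined, and its part in the X-linked difference cannot be told apart from culture and strain.

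**Figure D5:**
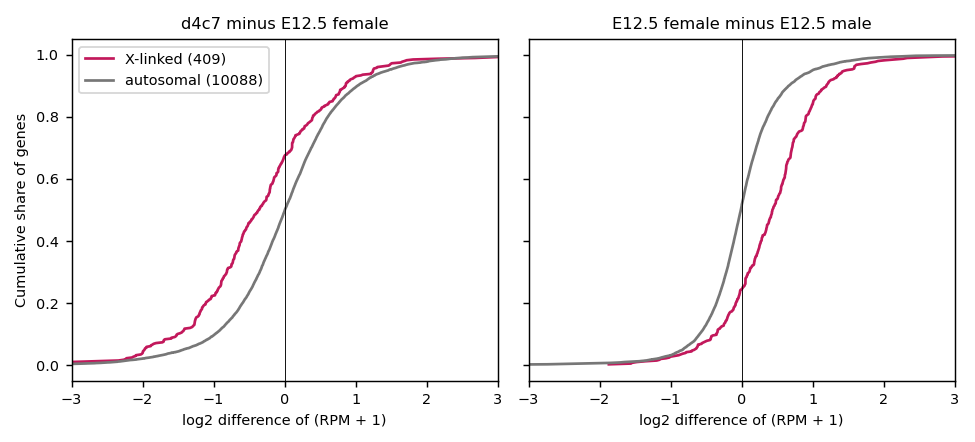
Cumulative share of genes (vertical) by log2 difference of RPM + 1 (horizontal) for 409 X-linked and 10088 autosomal genes, for d4c7 minus E12.5 female (left) and E12.5 female minus male (right). The X-linked curve is shifted to lower values on the left (median -0.36) and to higher values on the right (median 0.43).

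Markers of other cells that a sort could hold were low or mixed. Of 18 stromal and fibroblast markers, 11 were tested, and 3 were higher and 1 was lower, with 1 higher and none lower when either female library was left out. Their summed level was 524 and 748 RPM in d4c7 and 584 and 583 RPM in females. The fibroblast gene Dcn was at 7.46 and 4.14 RPM in d4c7 and at 0 in both female libraries. It was called higher (adjusted p = 0.0296 in limma), but not without the filter (0.126) or with a larger pseudocount (0.139). Sparc and Acta2 were also called higher, and Vim was called lower. Sparc lost its call in 1 of the 12 alternatives, the fit of only the 4 libraries (0.0543). Acta2 lost its call in 6 and Vim in 3. The 22 gonadal somatic markers summed to 125 and 71.1 RPM against 45.3 and 45.2 RPM, and Aard, which made up most of this sum in d4c7, was their only call. Blood and endothelial markers summed to 11.8 and 23.3 RPM against 22.7 and 18.4 RPM. In this list, 4 of 8 tested members were lower in d4c7 and 1 was higher. The globin gene Hbb-y was among the lower ones, at 0 in both d4c7 libraries and at 10.3 and 6.29 RPM in females. The endothelial gene Tek was the higher one, at 11.0 and 22.1 RPM in d4c7 against 2.12 and 1.76 RPM in females. Hindgut markers summed to 7.07 and 18.6 RPM against 42.5 and 35.2 RPM, and gastrulation and mesoderm markers to 9.35 and 7.19 RPM against 21.9 and 25.8 RPM. The part of such cells in the results was not tested.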

How the data were processed

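RNA was amplified as cDNA and sequenced from 3' ends. The deposited values are RPM per gene, and tools listed in the submitters' processing notes are TopHat 1.4.1, Cufflinks 2.2.0 and cutadapt 1.3, with the build mm10 and no role stated. Low RPM values were whole multiples of 1 read for 81.7% to 87.3% of values of up to 20 reads (tolerance 0.1 read), so counts were not recovered and no count test was run. Gene rows numbered 26218, beside 92 spike-in rows, and 10856 genes at 5 RPM or more in at least 2 of 12 libraries were tested.

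The test was limma 3.58.1 in R 4.3.3 on log2(RPM + 1), which understates changes of low genes, with group means over all 12 libraries (2 per group), a trended variance and Benjamini-Hochberg adjustment over all genes tested. Genes with an adjusted p under 0.05 are described as called, higher or lower, and errors of log2 differences are SE. The fit was run on simulated data with 10856 genes, of which 200 were changed. Each simulated gene had the same spread in every group, and unchanged genes the same mean. Of changes of 1 and 2 on the log2 scale, 40.0% and 86.0% were recovered, with 6 false calls. In the real data 38.9% of genes were called and d4c7 had the widest spread. The simulated shares therefore do not carry over to the calls reported here. Positions and promoters are from RefSeq (GRCm38.p6), and 24619 gene rows matched by Entrez ID. Alternatives changed the pseudocount, the filter, the scaling, the replicate block and the libraries fitted.

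Named genes were up to 4 called members of each list with the largest differences, the 12 largest increases and decreases among called genes of at least 50 RPM whose groups did not overlap (predicted genes left out), and a set always reported. Other list members, and the X-linked genes, were chosen after their values were seen. A few genes are not reported here, though they stay in the counts. Members and lists were chosen with earlier results of these data known. Pou5f1, Nanog, Dppa3, Dppa5a and Nlrp4c have near-identical copies elsewhere in the genome, and how shared reads were counted is not given in the sources used here.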

Additional observations from a re-analysis of the deposited data

Results flagged for a closer look

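For 9 named genes, d4c7 lay between the E12.5 sexes, with opposite and called differences from females and from males. The log2 difference of females minus males was 4.49 for Stra8, 6.17 for Phlda2, 3.75 for Rec8, 3.19 for Scd1, 2.38 for Id2, 3.70 for Gata2 and 3.22 for Nr6a1. It was -5.54 for Lefty1 and -6.66 for Lefty2, the male-high pair. These genes include the meiotic gene pair Stra8 and Rec8, BMP targets (Id2, Gata2) and Nodal antagonists. Spike-in RNA, which enters no comparison, summed to 12107 RPM in the first and 14003 RPM in the second E12.5 female library, far above the d4c7 libraries, and its part in the results was not tested.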

How the results depend on the processing

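The count of genes that differed between d4c7 and females was 2456 (1285 higher, 1171 lower) when only the 4 libraries compared were fitted. With 1 of the 4 libraries left out it ranged from 2807 to 4408, with 1534 to 2044 higher and 1273 to 2364 lower. Of the 4221 calls, 2446 were also called with the same sign in the fit of 4 libraries, and 2094 were called with each library left out. With the replicate block, 4393 genes were called. Deviations of same-numbered libraries had a correlation across genes of 0.00063 for d4c7 and females, so numbers did not pair these samples, but of 0.455 for d4c5 and d4c7 and 0.131 for d4c3 and d4c7. With the block, 358 genes were called between d4c7 and d4c3. Calls between E12.5 females and males ranged from 538 to 567 with 1 library left out. Calls between d4c7 and d4c3 numbered 103 without the filter and ranged from 31 to 786 with 1 library left out. Fitting only their 4 libraries, limma called 0, with 1084 genes at an unadjusted p under 0.05. The causes were not tested.

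Of 161 named genes that were called, 128 kept their call in all 12 alternatives, 31 lost it with 1 library left out, and none reversed. Of 16 named genes without a call, 9 passed with 1 library left out, as given beside their values. Some changed sign, and their log2 difference then ranged from -0.11 to 0.019 for Pou5f1, -0.56 to 0.027 for Kit, -0.38 to 0.041 for Hsf2bp, -0.39 to 0.029 for Piwil2 and -1.12 to 0.16 for Tex19.1. Of 816 list counts compared, 120 moved by more than 1.5 times, 102 of them to fewer calls. Depth limits genes near 3 reads, 0.517 to 1.18 RPM in these libraries.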

Other observations

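In FGF signalling, through which ERK feedback genes are induced, 5 of 19 tested genes were higher in d4c7 and 3 were lower. The share called, 42.1%, was near the 38.9% of all genes tested. The receptor genes differed in direction. Fgfr2 was at 151 and 98.6 RPM in d4c7 and at 35.5 and 24.9 RPM in females, and Fgfr3 was at 7.07 and 6.98 RPM against 33.7 and 31.4 RPM. Of 17 tested G1 cyclins and inhibitors, 4 were higher and 5 were lower, with 2 higher without the first female library and 2 lower without the first d4c7 library. The G1 cyclin genes also differed in direction: Ccnd1 was at 2.36 and 1.21 RPM against 18.2 and 18.9 RPM, and Ccne1 was at 137 and 118 RPM against 48.2 and 64.1 RPM.

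The d4c7 libraries differed widely from each other for some named genes. Ndufb11, a subunit gene of respiratory complex I, was at 44.4 and 144 RPM in d4c7 and at 409 and 306 RPM in females, so both d4c7 libraries lay below the female libraries.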
